A study of Mus musculus with 10 samples.

Results

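Genes of cholesterol synthesis, of its control and of cholesterol uptake were followed in mouse oocytes with and without RNAi against basonuclin. The set holds 29 genes chosen by name from the pathway, each read from the brightest probe set (mean over 10 samples) that the platform annotation gives to that gene alone. A probe set was kept where its log2 intensity was above 5 in at least 4 samples. Of the 29 genes, 27 had a probe set and all 27 were tested, of 10590 genes tested in all. Acat2 and Soat1 had no probe set named for them alone and were not analysed here. The level of Abca1 passed the filter only through the RNAi-transgenic samples, so a difference in that gene was built into its selection.

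The samples were 6 of RNAi-transgenic oocytes, in which a transgene lowers basonuclin (Bnc1) mRNA in the oocyte specifically, and 4 of non-transgenic oocytes. All oocytes were fully grown and had not resumed meiosis (the GV stage), and each sample was RNA of about 50 oocytes from 1 mouse, labelled with biotin for 1 array. The replicate numbers in the labels are 4, 5, 6, 11, 12 and 13 for RNAi-transgenic and 1, 2, 7 and 8 for non-transgenic samples. Strain, age, the promoter of the transgene and the number of transgenic lines are not given in the sources used here.

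Cholesterol is built from acetyl-CoA through mevalonate to farnesyl diphosphate, which squalene synthase commits to sterols. Squalene is oxidised and closed to lanosterol, and lanosterol is trimmed and reduced to cholesterol. The membrane-bound factors SREBP, held in the endoplasmic reticulum by Scap and Insig when sterols are plentiful, switch on the genes of synthesis and uptake when sterols run low. In mouse follicles, the cumulus cells around the oocyte are known to make cholesterol that the oocyte uses, and oocytes are known to promote that synthesis in cumulus cells.

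The knockdown and the quality of the arrays were checked before the pathway was read. Bnc1 had log2 intensities of 3.67 to 4.26 (median 3.77) in RNAi-transgenic samples, against 11.40, 11.51, 11.61 and 11.76 in non-transgenic samples, so every sample matched its label. It was at least 95.1-fold lower in RNAi-transgenic oocytes (limma adjusted p = 2.65e-11). Array medians were intensities of 17.5 to 20.1, and the correlation between samples of 1 group was 0.978 to 0.992 over the tested genes. Non-transgenic replicate 1 and RNAi-transgenic replicate 6 each had the largest spread around the mean within their own group, and replicate 6 had the widest gap between the 3-prime and 5-prime beta-actin control probe sets. That gap, a measure of RNA length, was 3.40 to 5.13 log2 units in RNAi-transgenic and 3.44 to 4.01 in non-transgenic samples (two-sided exact permutation p = 0.714, n = 6 and 4). All 11 oocyte markers passed the filter, and their summed intensity was 169525 to 200787 in RNAi-transgenic and 175072 to 188613 in non-transgenic samples.

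Within the pathway, 11 of 27 genes rose and 2 fell in RNAi-transgenic oocytes by the limma fit over all genes (Benjamini-Hochberg adjusted p below 0.05). That is 13 of 27 (48.1%), where 37.2% of all tested genes were called. In the direction of an increase, 18.9% of all tested genes were called, and of a decrease 18.3%. The median log2 fold change, RNAi-transgenic minus non-transgenic, was 0.16 over the 27 genes and -0.03 over all tested genes. The median is the same with Abca1 at its lower bound. Changes called with a fitted fold of at least 2 were found in 7 genes, all higher, where 8.98% of tested genes changed that far, 6.63% upward and 2.35% downward. Without Abca1, which the filter favoured, 10 rose and 2 fell of 26, and 6 rose at least 2-fold. The 7 were Tm7sf2, Abca1, Ebp, Scarb1, Sqle, Npc2 and Cyp51. The groups did not overlap in 12 of 27 genes, or 11 of 26 without Abca1, where 28.0% of tested genes showed no overlap. Without non-transgenic replicate 1 and RNAi-transgenic replicate 6, again 11 rose, Abca1 among them, and 2 fell, where 34.4% of tested genes were called.

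**Figure D1:**
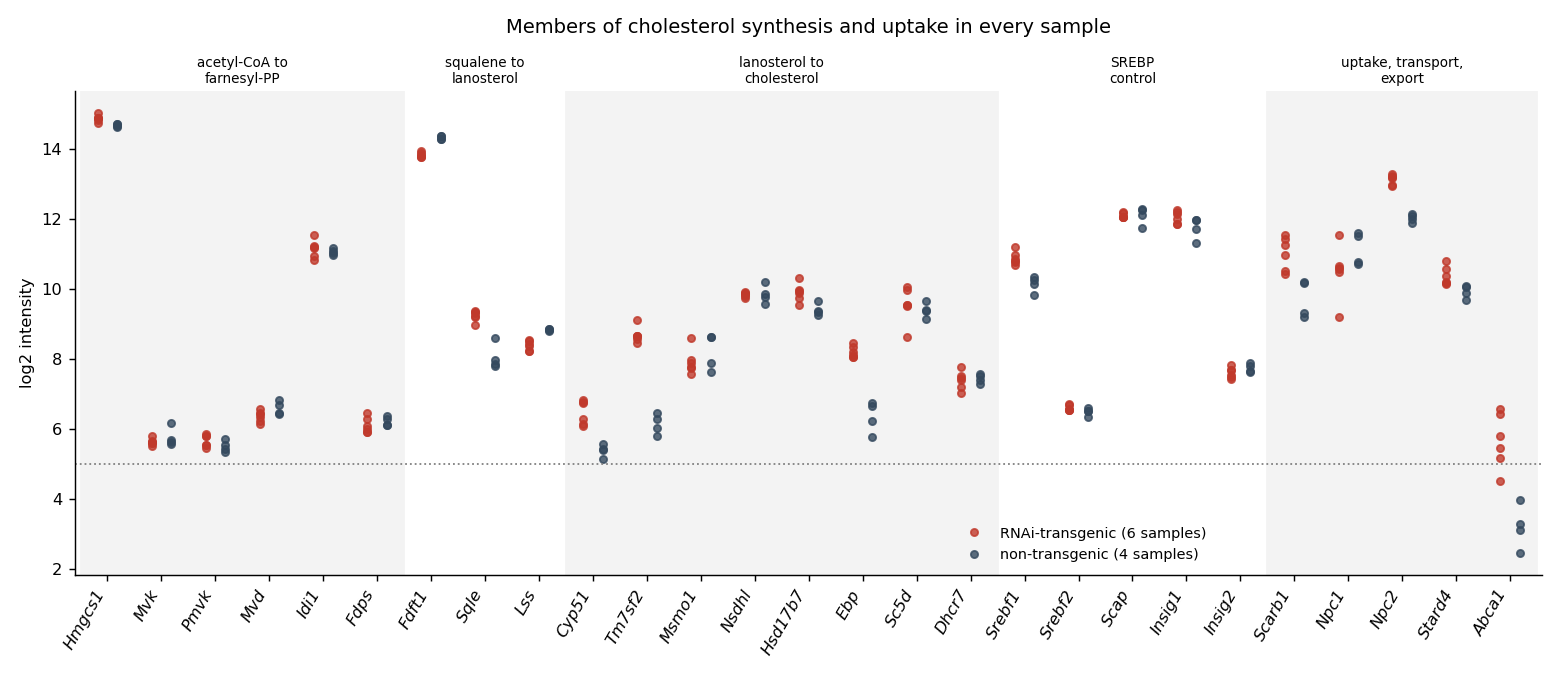
Log2 intensity of the 27 tested genes in every sample, in pathway order, with 6 RNAi-transgenic samples at the left and 4 non-transgenic samples at the right of each pair. The dotted line is the filter level of log2 5, and Tm7sf2, Ebp and Npc2 show groups that lie well apart.

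The early arm, from acetyl-CoA to farnesyl diphosphate, showed 1 higher gene among 6 tested and 0 lower in limma, where 18.9% of all tested genes rose. Its median log2 change was -0.01. Hmgcs1, which makes HMG-CoA, had log2 intensities of 14.72 to 15.02 (median 14.87) in RNAi-transgenic samples, against 14.61, 14.70, 14.65 and 14.71 in non-transgenic replicates 1, 2, 7 and 8. The groups did not overlap, but their nearest samples almost touched. Hmgcs1 rose by 0.19 on the log2 scale (SE 0.05, limma adjusted p = 0.0142). All 4 of its probe sets that passed the filter were higher when each was tested by itself, with log2 changes from 0.19 to 0.61. The call was lost after each array was centred on its median (0.13, limma adjusted p = 0.0896), and within each range of replicate numbers (adjusted p = 0.2 for 1 to 6 and 0.0549 for 7 to 13).

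The kinases and the later enzymes of the same arm gave no call. Mvk, mevalonate kinase, had a log2 change of -0.13 (95% confidence interval -0.39 to 0.12), and Pmvk, phosphomevalonate kinase, of 0.16 (-0.08 to 0.40). Mvd, the decarboxylase that yields isopentenyl diphosphate, had a log2 change of -0.24 (-0.49 to 0.02), and was lower by limma only after quantile normalization (-0.33, adjusted p = 0.0488). Idi1, the isomerase of that product, was at 10.81 to 11.52 (median 11.17) in RNAi-transgenic samples, against 10.95, 11.15, 11.09 and 11.01 in non-transgenic samples. Its groups overlapped, and so did those of Fdps, farnesyl diphosphate synthase, with a log2 change of -0.11 (-0.38 to 0.16). These intervals do not show equal levels in the 2 groups.

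All 3 enzymes between farnesyl diphosphate and lanosterol were called, in both directions, where 37.2% of all tested genes were called. Fdft1, squalene synthase, which commits the pathway to sterols, was at 13.75 to 13.94 (median 13.79) in RNAi-transgenic samples, against 14.29, 14.36, 14.27 and 14.35 in non-transgenic samples. Every RNAi-transgenic sample was below every non-transgenic sample. Fdft1 changed by -0.50 on the log2 scale (SE 0.05, limma adjusted p = 1.43e-05), and its other passing probe set by -0.56. Sqle, squalene epoxidase, a known control point of the pathway, was at 8.97 to 9.37 (median 9.26) in RNAi-transgenic samples, against 7.78, 7.84, 8.57 and 7.96 in non-transgenic samples. Non-transgenic replicate 7 was the closest to the other group, and the groups stayed apart. Sqle rose 2.28-fold, by 1.19 on the log2 scale (SE 0.15, limma adjusted p = 0.000119). Lss, lanosterol synthase, which closes the ring, was at 8.22 to 8.53 (median 8.40) in RNAi-transgenic samples, against 8.78, 8.86, 8.82 and 8.84 in non-transgenic samples. It changed by -0.44 (SE 0.09, limma adjusted p = 0.0025). The enzyme that rose thus lay between 2 that fell. Each of the 3 had an exact permutation p of 0.00476 (two-sided, n = 6 and 4), the smallest that the design allows. So did Tm7sf2, Ebp, Cyp51, Srebf1 and Npc2, while Hmgcs1 and Scarb1 had 0.00952, Hsd17b7 0.0143 and Stard4 0.019.

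In the late arm, from lanosterol to cholesterol, 4 of 8 genes rose and 0 fell in limma, where 18.9% of all tested genes rose. The median log2 change of the arm was 0.33. Tm7sf2, a sterol reductase that acts just after Cyp51, was at 8.45 to 9.11 (median 8.64) in RNAi-transgenic samples, against 6.43, 5.80, 6.28 and 6.00 in non-transgenic samples. All 6 RNAi-transgenic samples lay more than 2 log2 units above the highest non-transgenic sample. Tm7sf2 rose 5.84-fold, by 2.55 on the log2 scale (SE 0.15, limma adjusted p = 3.54e-07). Ebp, the sterol isomerase, was at 8.04 to 8.44 (median 8.15) in RNAi-transgenic samples, against 6.22, 5.76, 6.66 and 6.73 in non-transgenic samples. The non-transgenic samples spread more widely than the RNAi-transgenic ones, without overlap. Ebp rose 3.61-fold, by 1.85 (SE 0.18, limma adjusted p = 1.65e-05). The non-transgenic values of Tm7sf2 and Ebp were close to the filter level, so the size of both folds is uncertain.

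Cyp51, which removes a methyl group from lanosterol and opens this arm, was at 6.07 to 6.82 (median 6.51) in RNAi-transgenic samples, against 5.43, 5.55, 5.38 and 5.14 in non-transgenic samples. All its values were close to the filter level, where background correction makes a fold uncertain. Cyp51 rose 2.13-fold, by 1.09 on the log2 scale (SE 0.17, limma adjusted p = 0.00053). Hsd17b7, a reductase of the demethylation steps, was at 9.52 to 10.31 (median 9.91) in RNAi-transgenic samples, against 9.64, 9.36, 9.33 and 9.25 in non-transgenic samples. It is the only called gene of the 13 whose groups overlapped, through RNAi-transgenic replicate 5 and non-transgenic replicate 1. Hsd17b7 rose by 0.49 (SE 0.14, limma adjusted p = 0.0167), and its other passing probe sets were higher by 0.98 and 0.65.

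The other enzymes of the late arm gave no call. Msmo1, the oxidase that acts with Nsdhl and Hsd17b7 in demethylation, was at 7.57 to 8.58 (median 7.82) in RNAi-transgenic samples, against 7.62, 7.88, 8.61 and 8.62 in non-transgenic samples. Its non-transgenic samples fell into a lower pair, replicates 1 and 2, and a higher pair, replicates 7 and 8. Nsdhl, the dehydrogenase of these steps, had a log2 change of -0.01 (95% confidence interval -0.25 to 0.24). Sc5d, a sterol desaturase, was at 8.62 to 10.04 in RNAi-transgenic samples, lowest in replicate 6, against 9.12 to 9.64 in non-transgenic samples. It passed only with the beta-actin gap as a covariate (0.32, limma adjusted p = 0.0248). Dhcr7, the reductase of the last step of a main branch, had a log2 change of -0.05 (95% confidence interval -0.35 to 0.26).

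**Figure D2:**
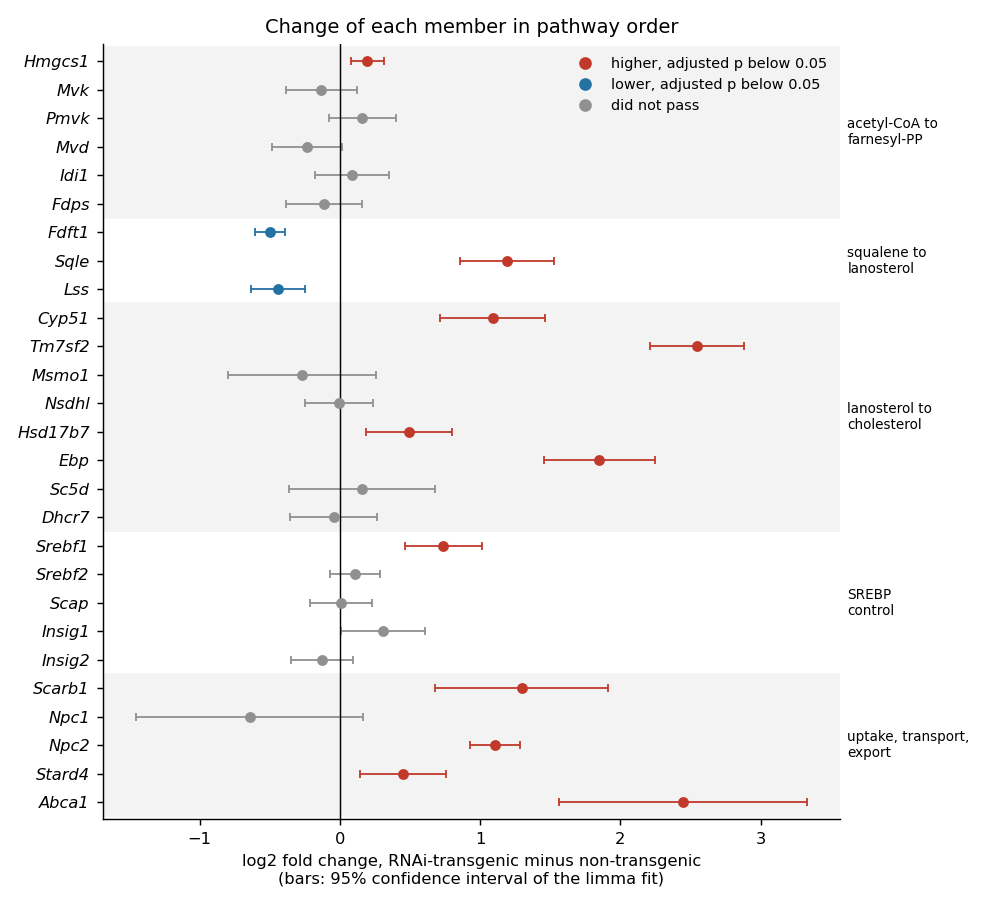
Log2 fold change, RNAi-transgenic minus non-transgenic, of each tested gene with its 95% confidence interval from limma, in pathway order from the top, red where higher, blue where lower and grey where not called. Fdft1 and Lss lie below 0 on both sides of Sqle, and Tm7sf2 is the highest at 2.55.

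Probe sets that read different stretches of a transcript were compared for the 8 genes with more than 1 that passed the filter. In 7 of the 8 all probe sets changed in the same direction. Of the 6 such genes that were called, Hmgcs1, Fdft1, Hsd17b7, Scarb1 and Npc2 had every passing probe set called in the same direction when each was tested by itself. In Stard4 only the brightest was called, and the log2 changes of the 3 were 0.45, 0.35 and -0.16. The brightest probe sets of Fdft1, Hsd17b7 and Scarb1 carry a suffix of the array maker for possible cross-hybridisation (x_at), but each of these genes had a further called probe set without it. The called genes outside the 6, Lss among them, each rest on 1 passing probe set, so no other could be compared.

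**Figure D3:**
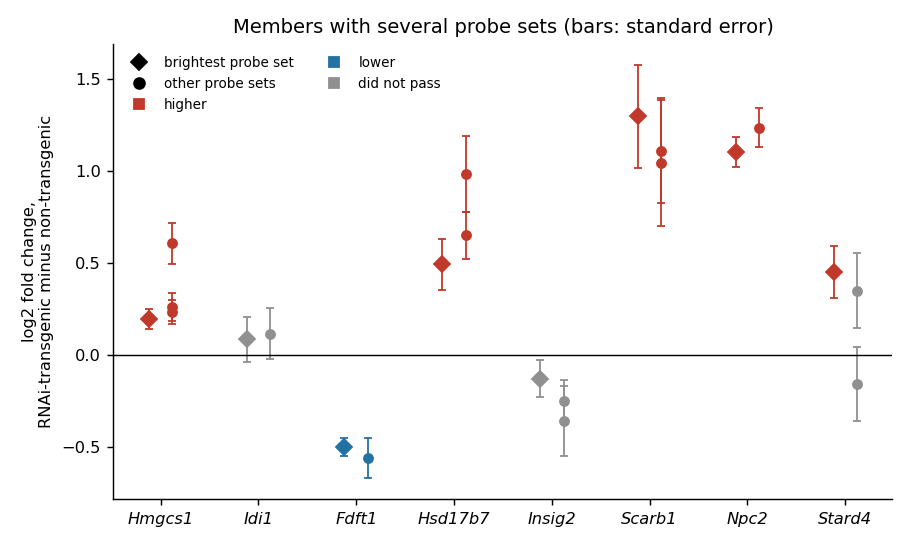
Log2 fold change, RNAi-transgenic minus non-transgenic, with its standard error for every probe set that passed the filter in the 8 genes with several. Diamonds are the brightest probe sets, circles the others, grey marks did not pass, and Stard4 is the gene whose probe sets point in different directions.

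The DNA before the annotated starts was read for short motifs, since several of the late enzymes rose together. RefSeq promoters (build GRCm38.p6), 250 bases before each annotated start, matched 23 of the 29 genes, with 31 starts. Fdps, Fdft1, Sqle, Scarb1, Npc1 and Stard4 were not matched. The CCAAT box, the site bound by NF-Y, which is a known partner of SREBP, was searched as CCAAT on both strands. It was present in 20 of the 23 genes (21 of 31 starts, 67.7%), where 33.8% of all 32851 promoters of this length hold it. Of genes called it was present in 8 of 9, and of tested genes not called in 11 of 12, and the difference was not tested. Abca1, Scap and Acat2 were the genes without it. GGGCGG, the core of the site of Sp1, was present at 24 of 31 starts (77.4%), where 32.7% of all promoters hold it. A form of the sterol regulatory element, TCACNCCAC on both strands, was found only before Hmgcs1, and 1.05% of all promoters hold it. The palindrome TCACGTGA was found at 0 of 31 starts, where 0.785% of all promoters hold it. A match is a description of letters and not a shown binding site.

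Printed here are the stretches that show these matches in 3 late enzymes that rose (Tm7sf2, Ebp and Cyp51), in Lss, which fell, and in Hmgcs1, which holds the TCACNCCAC match. They run 5′ to 3′ on the gene's strand, and capitals mark CCAAT, its reverse complement and TCACNCCAC.
Tm7sf2, chr19:6067851-6068100, minus strand: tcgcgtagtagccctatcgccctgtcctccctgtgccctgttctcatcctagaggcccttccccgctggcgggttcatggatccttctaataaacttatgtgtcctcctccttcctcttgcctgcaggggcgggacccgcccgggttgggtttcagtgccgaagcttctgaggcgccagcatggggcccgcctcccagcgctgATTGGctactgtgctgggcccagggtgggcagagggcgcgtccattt
Ebp, chrX:8193513-8193762, minus strand: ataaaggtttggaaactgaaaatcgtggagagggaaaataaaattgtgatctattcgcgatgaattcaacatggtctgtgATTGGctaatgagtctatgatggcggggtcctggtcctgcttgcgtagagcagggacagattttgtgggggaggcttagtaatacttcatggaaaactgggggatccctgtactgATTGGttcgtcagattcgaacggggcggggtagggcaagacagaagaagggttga
Cyp51, chr5:4104698-4104947, minus strand: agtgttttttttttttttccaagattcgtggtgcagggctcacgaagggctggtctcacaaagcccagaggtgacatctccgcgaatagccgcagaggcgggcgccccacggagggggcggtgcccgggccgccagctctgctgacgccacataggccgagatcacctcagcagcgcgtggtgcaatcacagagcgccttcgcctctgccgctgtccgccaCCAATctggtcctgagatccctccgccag
Lss, chr10:76531355-76531604, plus strand: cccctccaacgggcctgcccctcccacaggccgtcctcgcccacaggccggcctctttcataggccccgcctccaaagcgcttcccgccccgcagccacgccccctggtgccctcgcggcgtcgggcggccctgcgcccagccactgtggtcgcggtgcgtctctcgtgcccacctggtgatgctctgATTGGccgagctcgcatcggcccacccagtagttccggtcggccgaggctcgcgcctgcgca
Hmgcs1, chr13:119690101-119690350, plus strand: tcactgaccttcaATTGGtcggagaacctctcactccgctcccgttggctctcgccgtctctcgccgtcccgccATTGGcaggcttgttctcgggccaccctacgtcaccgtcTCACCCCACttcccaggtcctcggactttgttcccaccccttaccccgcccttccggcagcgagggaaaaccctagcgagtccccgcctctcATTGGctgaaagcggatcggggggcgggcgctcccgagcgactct

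Tm7sf2, Cyp51 and Lss each hold 1 CCAAT box in this window, Ebp 2 and Hmgcs1 3. The box starts 47 bases before the annotated start in Tm7sf2, 29 in Cyp51 and 62 in Lss.

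Of the 5 control genes, 1 rose, Srebf1, and 0 fell in limma, where 18.9% of all tested genes rose. The median log2 change of the 5 was 0.11. Srebf1, which encodes the SREBP form best known for fatty acid synthesis, was at 10.66 to 11.19 (median 10.81) in RNAi-transgenic samples, against 9.81, 10.33, 10.26 and 10.12 in non-transgenic samples. The groups did not overlap, and Srebf1 rose 1.67-fold, by 0.74 on the log2 scale (SE 0.12, limma adjusted p = 0.000851). Srebf2, which encodes the form best known for cholesterol synthesis, was at 6.53 to 6.71 (median 6.55) in RNAi-transgenic samples, against 6.58, 6.33, 6.51 and 6.51 in non-transgenic samples. Its log2 change was 0.11 (95% confidence interval -0.07 to 0.29), and the difference between Srebf1 and Srebf2 was not tested.

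Scap, the escort of SREBP to the Golgi, had a log2 change of 0.01 (95% confidence interval -0.21 to 0.23). Insig1, which retains Scap and is itself a known SREBP target, was at 11.85 to 12.23 (median 12.06) in RNAi-transgenic samples, against 11.96, 11.97, 11.29 and 11.69 in non-transgenic samples. The groups overlapped, and the log2 change of 0.31 did not pass in limma (adjusted p = 0.0974). It passed with the range of replicate numbers as a covariate (adjusted p = 0.014). Insig2, the other retention protein, had a log2 change of -0.13 (-0.35 to 0.10), and its 3 passing probe sets had changes of -0.13, -0.25 and -0.36.

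In the group of uptake, transport, storage and export, 4 of 5 tested genes rose and 0 fell in limma, where 18.9% of all tested genes rose, with a median log2 change of 1.10. Without Abca1, which the filter favoured, 3 of 4 rose, and the median log2 change was 0.78. Scarb1, the receptor that takes cholesterol from high-density lipoprotein, was at 10.40 to 11.53 (median 11.10) in RNAi-transgenic samples, against 9.18, 9.31, 10.16 and 10.19 in non-transgenic samples. Non-transgenic replicates 7 and 8 were nearly 1 log2 unit above replicates 1 and 2, and still below every RNAi-transgenic sample. Scarb1 rose 2.46-fold, by 1.30 on the log2 scale (SE 0.28, limma adjusted p = 0.00406), and its other probe sets by 1.04 and 1.11.

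Npc2, the soluble lysosomal protein that hands cholesterol to Npc1, was at 12.94 to 13.26 (median 13.17) in RNAi-transgenic samples, against 12.13, 11.86, 12.08 and 12.00 in non-transgenic samples. Npc2 rose 2.15-fold, by 1.10 (SE 0.08, limma adjusted p = 1.71e-06), and its other passing probe set by 1.24. Npc1, the membrane protein of the same export step, was at 9.18 to 11.54 (median 10.56) in RNAi-transgenic samples, against 11.50, 10.76, 11.58 and 10.71 in non-transgenic samples. The lowest value was in RNAi-transgenic replicate 4, and the groups overlapped only through RNAi-transgenic replicate 11, the other RNAi-transgenic samples lying below every non-transgenic sample. The log2 change of -0.64 had a 95% confidence interval of -1.45 to 0.17 (limma adjusted p = 0.198), so Npc1 and Npc2 had changes of opposite sign of which 1 passed.

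Stard4, a cytosolic sterol carrier and a known SREBP target, was at 10.14 to 10.79 (median 10.27) in RNAi-transgenic samples, against 10.03, 9.69, 10.08 and 9.87 in non-transgenic samples. It rose by 0.45 (SE 0.14, limma adjusted p = 0.0265). The call was lost without RNAi-transgenic replicate 12 (adjusted p = 0.051) and without non-transgenic replicate 2 (0.0828) or 8 (0.0621). It was lost too with the mean of its probe sets (0.22, adjusted p = 0.332). Abca1, which exports cholesterol to apolipoproteins, was at 4.51 to 6.56 (median 5.63) in RNAi-transgenic samples, against 2.45, 3.29, 3.11 and 3.97 in non-transgenic samples. All 4 non-transgenic samples and RNAi-transgenic replicate 11 were below the filter level. Set against that level, Abca1 was at least 1.57-fold higher.

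The labels name no batch, but the replicate numbers fall into the ranges 1 to 6 and 7 to 13, each with 3 RNAi-transgenic and 2 non-transgenic samples. Within numbers 1 to 6, 7 genes rose and 2 fell in limma, where 18.1% of tested genes were called. Within numbers 7 to 13, 10 rose and 1 fell, where 21.4% were called. All 13 called genes kept their direction in both ranges. For all but Hsd17b7 that was fixed in advance, since no other called gene had overlapping groups. Abca1, which the filter favoured, was among those that rose in each range. Cyp51 differed by 0.67 within numbers 1 to 6 and by 1.51 within 7 to 13, and Ebp by 2.21 and 1.50. Tm7sf2 differed by 2.50 and 2.59, Npc2 by 1.12 and 1.08, and Fdft1 by -0.52 and -0.48. The difference between the ranges was not tested. Lss was not called within numbers 7 to 13 (-0.34, limma adjusted p = 0.0821), nor Srebf1 within numbers 1 to 6 (0.66, adjusted p = 0.0554). Hsd17b7 (0.28, limma adjusted p = 0.317) and Stard4 (0.30, adjusted p = 0.186) were not called within numbers 1 to 6, and Hmgcs1 in neither range (0.21 and 0.18).

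**Figure D4:**
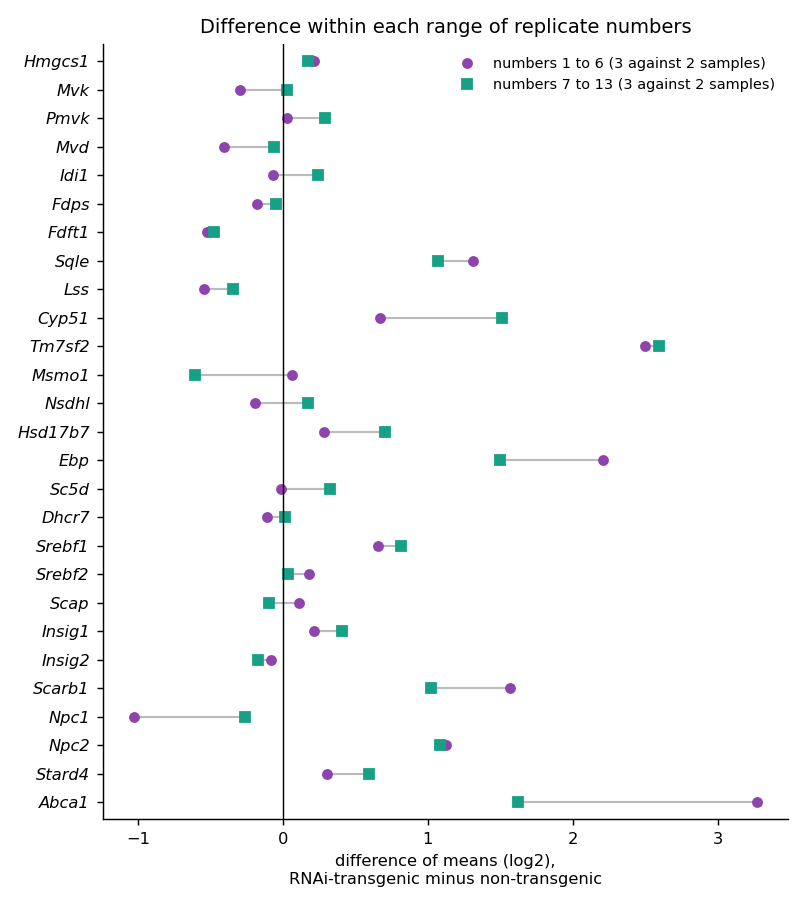
Difference of mean log2 intensity, RNAi-transgenic minus non-transgenic, of each tested gene within replicate numbers 1 to 6 (circles) and 7 to 13 (squares). Tm7sf2, Npc2, Fdft1 and Hmgcs1 nearly coincide, while Abca1, Cyp51, Ebp, Npc1 and Msmo1 lie apart.

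Further genes around the pathway were read from 4 lists of 60 genes, of which 43 were tested. Together 13 rose and 2 fell in limma, 34.9% of the 43, where 37.2% of all tested genes were called. Of the called genes, Fads2 and Scarb2 passed the filter only through the RNAi-transgenic samples, and without both 11 rose and 2 fell of 41. In the isoprenoid branch, which uses farnesyl diphosphate for prenyl groups and dolichol, 0 of 6 were called by limma. In the same fit 1 of the 6 (Dhdds, a dolichol enzyme) had an unadjusted p below 0.05, where 4869 of all 10590 tested genes did. Of 9 further sterol enzymes and genes of SREBP processing, 4 rose and 0 fell. Lpin1, a phosphatidate phosphatase that also restrains SREBP, rose by 1.76, and Erlin1 and Ube2g2, which act in sterol-regulated degradation in the endoplasmic reticulum, by 0.92 and 0.58. Lbr, whose sterol reductase activity is the same as that of Tm7sf2, was at 13.74 ± 0.16 in RNAi-transgenic and 13.50 ± 0.19 in non-transgenic samples (SD, n = 6 and 4) and did not pass (limma adjusted p = 0.0805).

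Of 19 genes of sterol transport, uptake and oxysterols, 7 rose and 1 fell, or 6 and 1 without Scarb2. The share called was 42.1%, or 38.9% without Scarb2, where 37.2% of all tested genes were called. Vldlr, a lipoprotein receptor, was at 9.45 to 10.25 (median 9.77) in RNAi-transgenic samples, against 5.96, 5.61, 5.72 and 5.86 in non-transgenic samples. The groups lay more than 3 log2 units apart, and Vldlr rose 16.3-fold (log2 change 4.03, SE 0.15, limma adjusted p = 6.89e-09). Its non-transgenic values were close to the filter level, so the size of the fold is uncertain. This brightest probe set carries the x_at suffix, and the size of the rise differed between probe sets of Vldlr. Another was at 7.05 to 8.13 in RNAi-transgenic and 3.76 to 4.57 in non-transgenic samples. A further probe set was at 6.83 to 7.96 against 6.19 to 6.50, a much smaller difference. Osbpl2, an oxysterol-binding protein, rose by 1.61 and Cd36, a scavenger receptor of the family of Scarb1, by 1.04. A dimmer Cd36 probe set was at 8.67 to 9.53 in RNAi-transgenic and 8.31 to 8.92 in non-transgenic samples, with overlap. Cyp7b1, an oxysterol hydroxylase, was at 4.51 to 6.01 (median 5.45) in RNAi-transgenic samples, against 7.19, 6.70, 6.95 and 6.94 in non-transgenic samples. It was above the filter level in 5 of 6 RNAi-transgenic samples and at least 2.73-fold lower (limma adjusted p = 0.00121).

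Among 9 tested fatty acid genes known as SREBP targets, 2 rose and 1 fell (33.3%, where 37.2% of all tested genes were called), with a median log2 change of -0.09. Fads2, a fatty acid desaturase, was at 7.08 to 8.30 in RNAi-transgenic samples, while each of the 4 non-transgenic samples was under the filter level. It was at least 6.35-fold higher. Fads2 passed the filter only through the RNAi-transgenic samples, and without it 1 rose and 1 fell of 8. Elovl5, an elongase, rose by 0.48, and Acacb, an acetyl-CoA carboxylase, changed by -0.65. The carboxylase gene Acaca, with a log2 change of -0.22, and the citrate lyase gene Acly, at -0.09, did not pass.

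**Figure D5:**
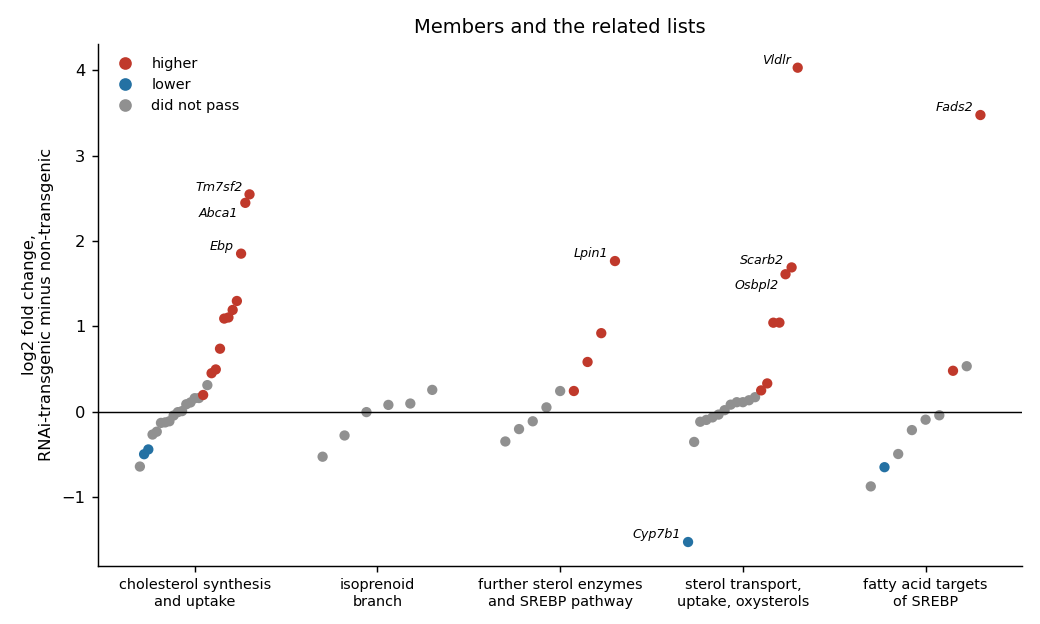
Log2 fold change, RNAi-transgenic minus non-transgenic, of the 27 tested pathway genes and of 43 tested genes in 4 related lists, each ordered by its change, in red where higher, blue where lower and grey where limma gave no call. Vldlr at 4.03 and Fads2 at a fitted 3.48 lie above every pathway gene, and Cyp7b1 at a fitted -1.53 is the lowest.

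Cells that surround the oocyte also make and take up cholesterol, so their markers were measured beside these results. In bulk samples, fewer cells of a type and less RNA per cell cannot be told apart. Of 13 granulosa and cumulus markers 7 passed the filter, with a summed intensity of 1573 to 2633 in RNAi-transgenic and 1651 to 1852 in non-transgenic samples. Fshr, the follicle-stimulating hormone receptor, rose by 1.24 and Cyp11a1, which cleaves cholesterol for steroids, was at least 2.95-fold higher, while Nr5a2 (-0.07), Gja1 (0.55) and Gata4 (-0.37), the brightest, did not pass in limma. Foxl2, Amh, Cyp19a1, Inhba, Has2 and Ptgs2 did not pass the filter. Of 11 theca, stroma and vessel markers only Dcn, Kdr and Acta2 passed the filter, with a summed intensity of 205 to 271 in RNAi-transgenic and 118 to 184 in non-transgenic samples. Dcn was at least 2.15-fold higher, Kdr rose by 1.19, and Acta2 changed by -0.50. Of 7 blood and immune markers Laptm5 and Srgn passed the filter, with a summed intensity of 2054 to 3169 in RNAi-transgenic and 2720 to 3061 in non-transgenic samples. Laptm5 rose by 1.06 in its brightest probe set, and Srgn changed by -0.56. Another Laptm5 probe set was at 5.89 to 6.33 in RNAi-transgenic and 5.56 to 6.12 in non-transgenic samples, with overlap. A further Laptm5 probe set, at 5.83 to 6.14 against 5.64 to 5.90, overlapped too. The part of such cells in the changes of Scarb1 and the other pathway genes was not tested.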

How the data were processed

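The authors deposited a single intensity for each probe set on each array. GCRMA is the tool that the submitters' processing notes name. It adjusts background from probe sequence and brings arrays to a common scale, and the sources used here do not state its version. These intensity values, as deposited, were linear and above 0, carry no detection flag, and were put on the log2 scale without new normalization. GCRMA draws dim probe sets toward a floor, so folds near log2 5 (an intensity of 32) are uncertain. Of 45101 probe sets, 34958 had 1 gene in the platform annotation, 932 several, and 9211 were not listed there and stay unnamed. After the filter, 18582 probe sets other than controls remained, and 10590 genes by their brightest. Groups were compared with limma 3.58.1 (lmFit, eBayes with a trend) in R 4.3.3, Benjamini-Hochberg adjusted over all 10590 genes at a threshold of 0.05. The fit was tested on simulated data with few changed genes, all changed at least 2-fold, and no array effects. That test does not cover smaller changes or differences in quality between arrays. Folds are 2 to the power of the log2 change. A gene whose lower group had samples below log2 5 is given as at least the fold over that level. Single genes also had an exact permutation test (two-sided, 210 arrangements), which cannot go below 0.00476. Separate mice make the replicates. Their number limits the precision. All 13 called genes are given by range and median in RNAi-transgenic samples and by sample in non-transgenic samples. Other pathway genes are given by interval or range. Of each further list up to 3 higher and 3 lower genes by adjusted p are given, some by their log2 change alone. Some further genes that did not pass were chosen after their values were seen. The genes and lists were chosen with earlier results of these data known. Figures were drawn with matplotlib 3.10.9.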

Additional observations from a re-analysis of the deposited data

Results flagged for a closer look

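A sample far from the rest of its group was looked for in 142 groups, those of 71 genes, and chance alone flags about 1 in 20 groups. There were 8 such samples, of which 1 was in a pathway gene. Tm7sf2 was at log2 9.11 in RNAi-transgenic replicate 11, with the other RNAi-transgenic samples at 8.45 to 8.64, all far above the non-transgenic samples. Erlin1 was at 10.16 in the same replicate, with the others at 10.36 to 10.48. In RNAi-transgenic replicate 6, Fnta, a prenyltransferase subunit, was at 13.63 (others 13.30 to 13.34) and Pggt1b, another prenyltransferase subunit, at 6.84 (others 7.46 to 7.70). Abcg4, a sterol exporter, was at 6.32 in RNAi-transgenic replicate 4 (others 6.16 to 6.21). Fasn, the fatty acid synthase gene, was at 6.53 in non-transgenic replicate 1, with the other non-transgenic samples at 9.54 to 9.68. In non-transgenic replicate 8, Acaca was at 5.67 (others 5.91 to 5.93) and Fads2 at 3.72 (others 4.30 to 4.38).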

How the results depend on the processing

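No paired analysis was possible because the groups share no replicate number. Of the 13 called genes, 8 were called in every alternative run for them, and no called gene changed direction. Leaving out samples could not change the direction of a gene whose groups did not overlap. Hmgcs1, Hsd17b7, Lss, Srebf1 and Stard4 lost their call in at least 1. Of the 14 others, Insig1, Mvd and Sc5d each gained a call in 1. The number called was 12 to 13 when a sample was left out, where 3383 to 3772 of all tested genes were called. It was 11 (of 20 tested) with the filter at log2 7, for which the share of all genes is not given here. At an adjusted p of 0.01 it was 10, where 2501 of all 10590 tested genes were called. The median log2 change of the pathway genes was 0.0863 after quantile normalization, 0.0946 after median centring, 0.12 with log2(value + 16), 0.11 within replicate numbers 1 to 6 and 0.24 within 7 to 13, and 0.12 to 0.16 when a sample was left out. Over all genes, 1913 were called within numbers 1 to 6 and 2264 within 7 to 13, with fewer samples, and 2501 at the stricter p, against 3940 in all. The cause of the other shifts was not tested. Leaving out non-transgenic replicate 1 with RNAi-transgenic replicate 6, and the beta-actin gap as a covariate, were chosen after seeing the data.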
